A study of Bos taurus with 12 samples.

Results

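The genes described here are 10 that are widely used as marks of T lymphocytes and natural killer (NK) cells. They are the CD3 chains CD3D, CD3E, CD3G and CD247, the adhesion receptor CD2, the coreceptors CD4 and CD8A, and the cytotoxic granule genes GZMB, PRF1 and NKG7. Every probe that the scanner files name for 1 of these symbols was taken, which gave 25 probes. Of these, 22 were well above background on at least 3 of 12 arrays and were tested, with at least 1 tested probe for each gene. The 10 genes stand among 19215 genes with a tested probe. In counts of genes, a gene is represented by its brightest probe, the one with the highest mean over the 12 arrays.

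The samples were biopsies of the endometrium, the lining of the uterus, from 3 fertile cows. Each cow was sampled on days 2, 7 and 14 after povidone-iodine (PVP-I) had been given into the uterus, and on day 0, the baseline of the comparisons. PVP-I is an antiseptic that releases iodine. All 12 biopsies therefore came from animals that received PVP-I, and the labels do not say whether the day 0 biopsy preceded it. There was no untreated cow, and biopsies alternated between the left and right horns, so that time, repeated biopsy, horn and PVP-I cannot be told apart. RNA of each biopsy was hybridised to a 1-colour Agilent bovine array, and the number of arrays, 3 a day, limits the precision.

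On 11 arrays 71.3% to 76.0% of probes were well above background, and on the day 2 array of cow 3 the share was 63.2%. No spot was saturated. All 9 epithelial and all 10 stromal marker genes on the array were well above background on at least 3 arrays. The deposited value table and the scanner files name the arrays differently: each column of the table matched 1 scanner file (correlation 1.0, next best at most 0.519), and for 10 of 12 arrays this was not the sample to which the file is linked. Arrays are named here by the value table. By that naming each of 3 slides held the 4 days of 1 cow in order of position, so that cow and slide, and day and position, cannot be told apart. With the file links in its place, none of the 10 genes passed any test by limma, and 17 of their 30 changes against day 0 turned sign.

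The T cell receptor recognises peptide bound to MHC molecules but has almost no cytoplasmic part of its own. The CD3 delta, epsilon and gamma chains and the zeta chain, encoded by CD247, form the complex that carries its signal into the cell, where LCK and ZAP70 are the first kinases. CD4 and CD8 bind MHC class II and class I beside the receptor, and CD2 binds its ligand on the partner cell. Cytotoxic T cells and NK cells kill by releasing perforin (PRF1), which makes pores, and granzymes such as GZMB, proteases that trigger apoptosis; NKG7 is a membrane protein of the same granules. NK cells lack the T cell receptor but carry CD247, which pairs with their activating Fc receptor. Lymphocytes reside in the endometrium of cows, between epithelial cells and in the stroma, as background known from histology.

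The probes are 60-base oligonucleotides, and for CD3D and GZMB the probes of 1 gene name behaved differently, so their sequences are shown first. All positions are on Btau_3.1, as the scanner files give them; exon and UTR positions were not analysed here. The 3 probes named for CD3D lie on the minus strand of chromosome 15. Probes A_73_108396 (chr15:27453348-27453408) and A_73_P075101 (chr15:27452806-27453285, where the 60 bases are spread over a longer stretch) are printed whole, and of probe A_73_P049086 (chr15:27451220-27451279) bases 31 to 60 are printed.
CD3D A_73_108396: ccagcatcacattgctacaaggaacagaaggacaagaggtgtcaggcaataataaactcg
CD3D A_73_P075101: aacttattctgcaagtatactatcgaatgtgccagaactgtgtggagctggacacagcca
CD3D A_73_P049086: acagtgacttccctggcagtccagtggtta

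The files name 4 probes GZMB, and they fall on 2 loci of chromosome 21. A_73_112113 (chr21:34820861-34820920, plus strand, bases 31 to 60 printed) and A_73_P069221 (chr21:34820734-34820793, plus strand) carry the accession of GZMB. A_73_P069241 (chr21:34983354-34983413, minus strand) and A_73_110209 (chr21:34983314-34983373, minus strand) carry accessions that RefSeq assigns to LOC508646, another locus. The 21 capitals in A_73_112113 mark a run that it shares with a probe of LOC508858. No other of the 25 probes shared 20 or more bases with a probe of another gene, against a share of 3.62% of all 43622 probes with a sequence. Only exact runs among the array's own probes were searched, so binding to other transcripts was not tested.
GZMB A_73_112113: agtgtgtgaAGGAAGGTTGCCTGGAACTTA
GZMB A_73_P069221: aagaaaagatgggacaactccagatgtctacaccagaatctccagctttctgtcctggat
GZMB A_73_P069241: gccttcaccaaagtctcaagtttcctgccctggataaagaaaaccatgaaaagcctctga

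For the genes that passed a test, the first 30 bases of the probe are shown. NKG7 had 1 probe (A_73_115604, chr18:57350272-57350331, minus strand), CD2 had 1 (A_73_114396, chr3:28817870-28817929, minus strand), and CD3E was represented by A_73_104727 (chr15:27446810-27446869, plus strand).
NKG7 A_73_115604: ggttccctctctgatttagtcaccctgccg
CD2 A_73_114396: cgaagaaaactcctaactctgccgcagctg
CD3E A_73_104727: ctccatgaatgtgctaaattccttgtcagc

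All signals below are log2 processed intensities minus the log2 of the array's 75th percentile, so that 0 is a probe as bright as that percentile. They compare 1 probe across arrays and not different probes with each other. Changes are log2 differences between days from limma, with the cow as a block. A gene passed the test at an adjusted p under 0.05, Benjamini-Hochberg over 33539 probes. In bulk tissue, fewer cells of a type and less RNA per cell cannot be told apart. The 3 comparisons with day 0 share the same day 0 arrays.

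On day 2 NKG7 rose and no other of the 10 genes passed the test; on day 7 NKG7 and CD2 rose; on day 14 none passed. NKG7 was 3.27-fold higher on day 2, when the changes of CD2, CD3E and CD3G were -0.13, -0.16 and -0.12 on the log2 scale. CD2, CD3E and CD3G had their highest means on day 14. For CD247, the brightest CD3D probe, CD4 and CD8A the changes on the 3 later days ranged from -0.79 to 0.09, none past the threshold. GZMB was lower on day 2 in every cow without passing the test.

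**Figure D1:**
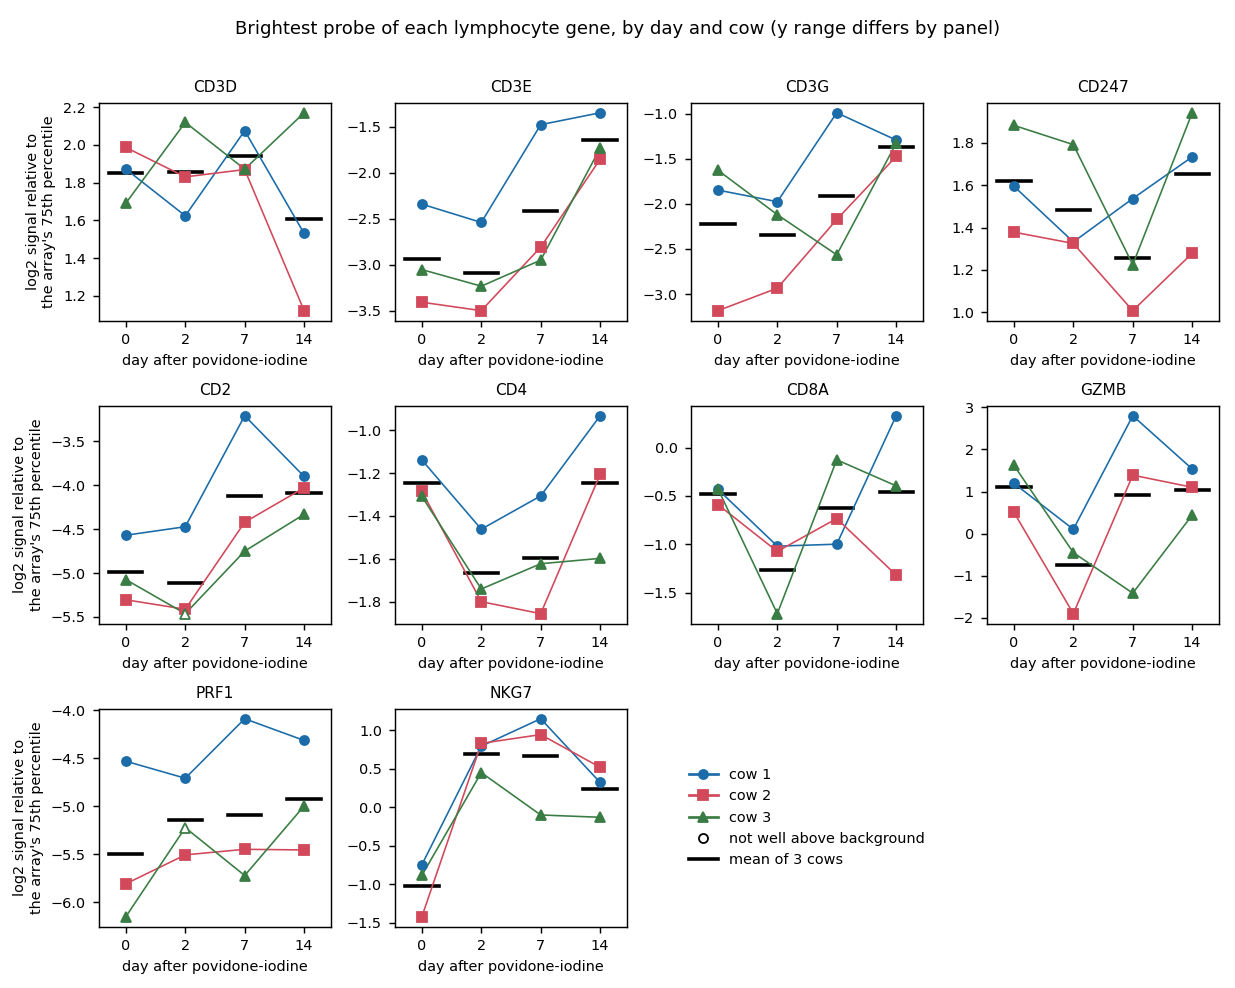
Signal of the brightest probe of each of the 10 genes, as log2 relative to the array's 75th percentile (vertical axis, range differing by panel), on days 0, 2, 7 and 14 (horizontal axis, evenly spaced). Each coloured line is 1 of 3 cows, open points were not well above background, and bars are means; NKG7 is above day 0 in every cow on all later days, while CD2, CD3E and CD3G are highest on day 14 or day 7.

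Among the cytotoxic granule genes only NKG7 passed a test. In cows 1, 2 and 3 its signal was -0.75, -1.42 and -0.89 (day 0), 0.79, 0.83 and 0.45 (day 2), 1.15, 0.94 and -0.10 (day 7) and 0.32, 0.52 and -0.13 (day 14). Every array of days 2, 7 and 14 lay above every array of day 0, as in 12.6%, 19.7% and 13.7% of all genes, and on days 7 and 14 cow 3 was the lowest of the 3 cows. The means were -1.02 ± 0.36, 0.69 ± 0.21, 0.66 ± 0.67 and 0.24 ± 0.33 on days 0, 2, 7 and 14 (SD, n = 3 each).

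The change of NKG7 on day 2 was 1.71 ± 0.28 (SE), 3.27-fold, with a limma adjusted p of 0.0283, higher in 3 of 3 cows. On day 7 it was 1.68 ± 0.28, 3.21-fold, with an adjusted p of 0.00922, higher in 3 of 3 cows. On day 14 the change was 1.25 (95% interval 0.60 to 1.91) and missed the threshold at an adjusted p of 0.0838. Days 7 and 2 differed by -0.03 (adjusted p = 0.975), and days 14 and 2 by -0.45 (adjusted p = 0.551). The direction held whichever cow was left out, but the calls did not: without cow 1 the changes were 1.79 on day 2 and 1.57 on day 7 (adjusted p = 0.346 and 0.152), and without cow 2 they were 1.44 and 1.34 (adjusted p = 0.283 and 0.118). Over all probes 0 were called on day 2 and 0 on day 7 without cow 1, and 0 and 213 without cow 2. With all cows these counts were 846 and 6098, so the lost calls were not particular to NKG7. Without the day 2 array of cow 3 the day 2 change was 1.66 at an adjusted p of 0.0644.

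By mean signal, pan-leukocyte, macrophage and neutrophil genes were also higher on day 2, while B and plasma cell genes were lower in each cow. The mean log2 signal of 10 B and plasma cell genes was -3.48, -4.75 and -4.35 on day 2 in cows 1, 2 and 3. On day 0 it was -3.225, -4.47 and -3.39. PTPRC and ITGB2 were among 12 pan-leukocyte genes, most but not all of them also carried by lymphocytes. Over these 12 the mean log2 signal ranged from 0.29 to 0.66 in the 3 cows on day 2, against -0.66 to -0.32 on day 0. Over 16 macrophage genes it ranged from -0.31 to -0.09 on day 2, against -1.45 to -1.22 on day 0. Over 10 neutrophil genes it ranged from -2.20 to -1.45 on day 2, against -3.65 to -2.95 on day 0. On days 7 and 14 the lists differed from each other in cow 3. Its macrophage mean was -1.40 on day 7 and -1.48 on day 14, against -1.42 on day 0. Its pan-leukocyte mean was -0.44 on day 7 and -0.22 on day 14, against -0.59 on day 0. Its neutrophil mean was -2.97 on day 7 and -2.91 on day 14, against -3.65 on day 0. Set against the day 0 range of the 3 cows, its day 7 means lay inside for each of these lists. Its day 14 means lay above that range for pan-leukocyte and neutrophil genes and below it for macrophage genes. Its NKG7 signal was above every day 0 array on both days. The part of these cells in the NKG7 result was not tested.

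GZMB had the widest range of the 10 genes, 4.70 log2 units over the 12 arrays. Its signal was 1.20, 0.51 and 1.62 (day 0), 0.10, -1.90 and -0.45 (day 2), 2.80, 1.39 and -1.41 (day 7) and 1.54, 1.1 and 0.44 (day 14) in cows 1, 2 and 3. Every day 2 array lay below every day 0 array, and on day 7 cows 1 and 2 were above their day 0 value while cow 3 was far below it. The day 2 change was -1.86 (95% interval -3.75 to 0.03, adjusted p = 0.247), lower in 3 of 3 cows. On day 7 the cows' own changes were 1.60, 0.88 and -3.04, and the estimate was -0.18 (95% interval -2.07 to 1.71, adjusted p = 0.897). Without cow 3 the day 7 change was 1.24 (adjusted p = 0.088), and the difference between days 7 and 2 was 2.99 (adjusted p = 0.0311), against 1.67 (adjusted p = 0.329) with all cows.

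The other GZMB probe of the same locus, A_73_P069221, gave the same course, with changes of -1.93, -0.20 and -0.27 on days 2, 7 and 14 and a correlation of 0.994 with A_73_112113 over the 12 arrays. The probes of LOC508646 differed from it: A_73_110209 changed by -0.08 on day 2, 0.98 on day 7 and 0.80 on day 14, none past the threshold (adjusted p = 0.933, 0.141 and 0.322). A_73_P069241 was well above background on 4 of 12 arrays, none of them of day 0 or day 2. In cow 3 both probes of GZMB were lower on day 7 than on day 0. On the same array the mean log2 signal of 16 macrophage genes was -1.40, while it was 0.37 and -0.22 on day 7 in cows 1 and 2; its part in the GZMB values was not tested.

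PRF1 was dim. Its brightest probe was at -4.53, -5.81 and -6.15 (day 0), -4.71, -5.51 and -5.22 (day 2), -4.09, -5.45 and -5.72 (day 7) and -4.31, -5.46 and -5.00 (day 14) in cows 1, 2 and 3. The days overlapped, and cow 1 was the highest of the 3 cows on every day. The changes were 0.35, 0.41 and 0.57 on days 2, 7 and 14, with adjusted p-values of 0.453, 0.272 and 0.236; day 14 was higher in 3 of 3 cows. Of the other PRF1 probes, A_73_P102581 was well above background on 5 of 12 arrays and A_73_P102611 on 11, with day 14 changes of 0.50 and 0.27.

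Of the T cell receptor complex, CD3E was the chain with the smallest adjusted p over the 4 days. Its signal was -2.34, -3.41 and -3.05 (day 0), -2.54, -3.50 and -3.23 (day 2), -1.48, -2.81 and -2.95 (day 7) and -1.35, -1.85 and -1.73 (day 14) in cows 1, 2 and 3. Every day 14 array lay above every array of days 0 and 2, while days 7 and 0 overlapped. The change was -0.16 on day 2 (adjusted p = 0.708), 0.52 on day 7 (adjusted p = 0.12) and 1.29 on day 14 (95% interval 0.80 to 1.77, adjusted p = 0.0563), the last 2.45-fold and higher in 3 of 3 cows. Across the 4 days together CD3E passed limma's F-test at an adjusted p of 0.022. Between the later days, the day 14 signal exceeded that of day 2 by 1.45 (adjusted p = 0.0898) and that of day 7 by 0.77 (adjusted p = 0.134). Its other probe, A_73_P109026, was well above background on 2 arrays and was not tested.

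CD3G followed the same order of means, day 14 highest and day 2 lowest, with larger spread. Its brightest probe, A_73_111056, was at -1.85, -3.18 and -1.63 (day 0), -1.98, -2.93 and -2.12 (day 2), -0.99, -2.17 and -2.56 (day 7) and -1.29, -1.48 and -1.33 (day 14) in cows 1, 2 and 3. The day 14 arrays lay above all of day 0, and on day 7 cow 3 was below its own day 0 value. The day 14 change was 0.85 (95% interval -0.02 to 1.72, adjusted p = 0.25). The other CD3G probes gave 0.74 and 0.69 on day 14 (adjusted p = 0.278 and 0.324), and the 3 probes correlated at 0.870 to 0.978 over the 12 arrays.

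The CD3D probes disagreed. A_73_108396 was at -5.84, -7.09 and -6.01 (day 0), -5.74, -6.74 and -6.46 (day 2), -4.43, -5.89 and -5.21 (day 7) and -4.89, -5.17 and -5.21 (day 14) in cows 1, 2 and 3. It was well above background on 9 arrays, those of days 7 and 14 included, and not in cow 2 on days 0 and 2 or in cow 3 on day 2. This probe rose on day 7 by 1.13 ± 0.25 (SE), 2.19-fold, with an adjusted p of 0.0201, higher in 3 of 3 cows; the day 14 change was 1.22 at an adjusted p of 0.0709. A_73_P075101 changed alike, by 1.00 on day 7 and 1.08 on day 14 (adjusted p = 0.0545 and 0.118), and correlated with A_73_108396 at 0.848 over the 12 arrays.

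The brightest CD3D probe, A_73_P049086, did not follow them. It was at 1.87, 1.99 and 1.69 (day 0), 1.62, 1.83 and 2.12 (day 2), 2.08, 1.87 and 1.87 (day 7) and 1.53, 1.12 and 2.17 (day 14) in cows 1, 2 and 3. Its changes were 0.01, 0.09 and -0.24 on days 2, 7 and 14 (adjusted p = 0.99, 0.832 and 0.609), and the day 7 interval was -0.49 to 0.66. It correlated with the other CD3D probes at -0.210 and 0.001. By mean signal A_73_P049086 lay at the 88.8th percentile, and A_73_108396 and A_73_P075101 at the 31.7th and 34.7th. Which transcripts A_73_P049086 binds, and which probe reports CD3D, was not tested. The choice decides whether CD3D counts among the genes that rose on day 7. With the mean over its 3 probes CD3D changed by 0.74 on day 7 (limma adjusted p = 0.0236). In the gene counts, medians and the mean of the CD3 chains, CD3D is A_73_P049086 alone. Its level course there therefore rests on an unsettled probe.

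**Figure D2:**
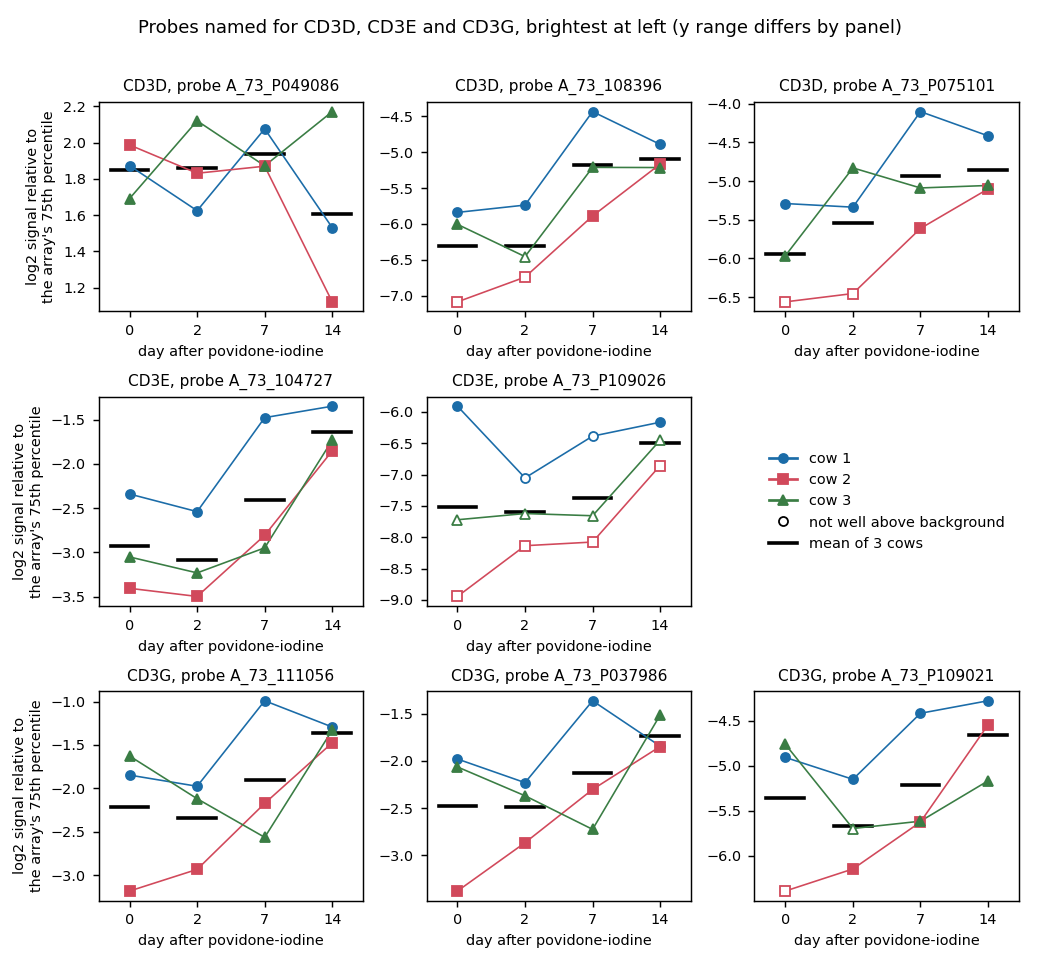
Signal of every probe named for CD3D, CD3E and CD3G (log2 relative to the array's 75th percentile, range differing by panel) on days 0, 2, 7 and 14, with 1 line for each of 3 cows, open points not well above background, and bars for means. The brightest CD3D probe, A_73_P049086, is level while A_73_108396 and A_73_P075101 are higher on days 7 and 14, as is CD3E on day 14.

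CD247, the zeta chain that NK cells share with T cells, was at 1.59, 1.38 and 1.88 (day 0), 1.33, 1.32 and 1.79 (day 2), 1.54, 1.01 and 1.22 (day 7) and 1.73, 1.28 and 1.94 (day 14) in cows 1, 2 and 3. The days overlapped. The changes were -0.14, -0.36 and 0.03 on days 2, 7 and 14 (adjusted p = 0.694, 0.177 and 0.933), with a day 14 interval of -0.37 to 0.43. Its probes A_73_P328501 and A_73_109486 overlap on chromosome 3 and are not independent; they correlated at 0.989.

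CD2, the adhesion receptor of T and NK cells, was at -4.57, -5.30 and -5.08 (day 0), -4.47, -5.41 and -5.46 (day 2), -3.21, -4.42 and -4.75 (day 7) and -3.90, -4.03 and -4.33 (day 14) in cows 1, 2 and 3. Days 7 and 0 overlapped across cows although each cow was higher on day 7, and the day 14 arrays lay above all of day 0. CD2 rose on day 7 by 0.86 ± 0.24 (SE), 1.81-fold, with a limma adjusted p of 0.043. The day 14 change was 0.90 (95% interval 0.34 to 1.45, adjusted p = 0.105), and the day 2 change was -0.13 (adjusted p = 0.79). The day 7 call was close to the threshold: without cow 1, cow 2 or cow 3 the change was 0.60, 0.84 and 1.12 with adjusted p-values of 0.278, 0.226 and 0.0502. It was 0.86 at an adjusted p of 0.187 without the cow in the model, and 0.36 at an adjusted p of 0.103 with normexp background correction. Over all probes 0, 213 and 6215 were called on day 7 without cow 1, cow 2 and cow 3, against 6098 with all cows.

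Neither coreceptor passed a test on any day. CD4 was at -1.14, -1.29 and -1.31 (day 0), -1.46, -1.80 and -1.74 (day 2), -1.31, -1.86 and -1.62 (day 7) and -0.93, -1.21 and -1.60 (day 14) in cows 1, 2 and 3. Every day 2 array lay below every day 0 array, with a change of -0.42 (95% interval -0.79 to -0.05, adjusted p = 0.187), and on day 7 each cow was again lower, with a change of -0.35 (adjusted p = 0.16). On day 14 the change was 0.00 (95% interval -0.37 to 0.37). The other CD4 probes were well above background on 5, 0 and 0 arrays.

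CD8A was at -0.43, -0.59 and -0.43 (day 0), -1.02, -1.07 and -1.72 (day 2), -1.0, -0.73 and -0.13 (day 7) and 0.33, -1.32 and -0.40 (day 14) in cows 1, 2 and 3. The day 2 arrays lay below all of day 0, and by day 14 the cows had spread to both sides of their day 0 values. The changes were -0.79, -0.14 and 0.02 on days 2, 7 and 14 (adjusted p = 0.295, 0.834 and 0.982), and the day 14 interval of -0.88 to 0.92 was wide. The second CD8A probe was well above background on 3 arrays.

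Counted over the 10 genes, 1 was called higher and 0 lower on day 2, where 2.74% of the 19215 genes were called and 1.68% were called higher. At an unadjusted p under 0.05 limma called 2 of the 10, NKG7 and CD4, where 21.4% of all genes were below that p. The median change of the 10 was -0.13, against -0.02 over all genes, and 5 of 10 were lower in all cows, against 28.5% of all genes. In 3 genes, GZMB, CD8A and CD4, every day 2 array lay below every day 0 array, against 12.8% of all genes.

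On day 7, 2 of 10 were called higher and 0 lower, where 18.5% of all genes were called and 9.73% were called higher. Counting any probe, 3 of the 22 tested probes were called, for CD2, CD3D and NKG7, where 18.2% of all probes were. The median change of the 10 was 0.20, against 0.01 over all genes. The share of the 10 genes called on day 7 was thus near that of all genes.

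On day 14, 0 of 10 were called by limma, where 0.0937% of all genes were, and 4 of 10 (CD2, CD3E, PRF1 and NKG7) had an unadjusted p under 0.05, where 20.1% of all genes did. With normexp correction and quantile normalisation 1 of 10, CD3E, was called. That setting called 817 of all probes on day 14, against 44 without it, so the share of 0.0937% is not its background. The median change was 0.30, against 0.02 over all genes. In 4 of 10 (CD2, CD3E, CD3G and NKG7) every day 14 array lay above every day 0 array, against 13.7% of all genes, and 5 of 10 were higher in all cows, against 23.1%.

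Between the later days none of the 10 genes was called by limma. For day 14 against day 2, 0% of all genes were called, and 4 of the 10 (CD3E, CD2, CD4 and CD3G) had an unadjusted p under 0.05, where 13% of all genes did. In CD3E, CD2, CD3G and GZMB every day 14 array lay above every day 2 array, against 7.15% of all genes. For day 7 against day 2, 0.515% of all genes were called and 2 of the 10, CD2 and CD3E, had an unadjusted p under 0.05, where 18.9% of all genes did. For day 14 against day 7, 0.151% were called and 1 of the 10, CD3E, had an unadjusted p under 0.05, where 18.2% of all genes did. Over the 4 days together the F-test called 3 of 10, CD2 (adjusted p = 0.048), CD3E (0.022) and NKG7 (0.0282), where 8.01% of all genes were called. Without cow 1, and likewise without cow 2, the F-test called 0 of 10, and 0 of all probes on the array. The loss of calls was thus not particular to CD2, CD3E and NKG7.

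**Figure D3:**
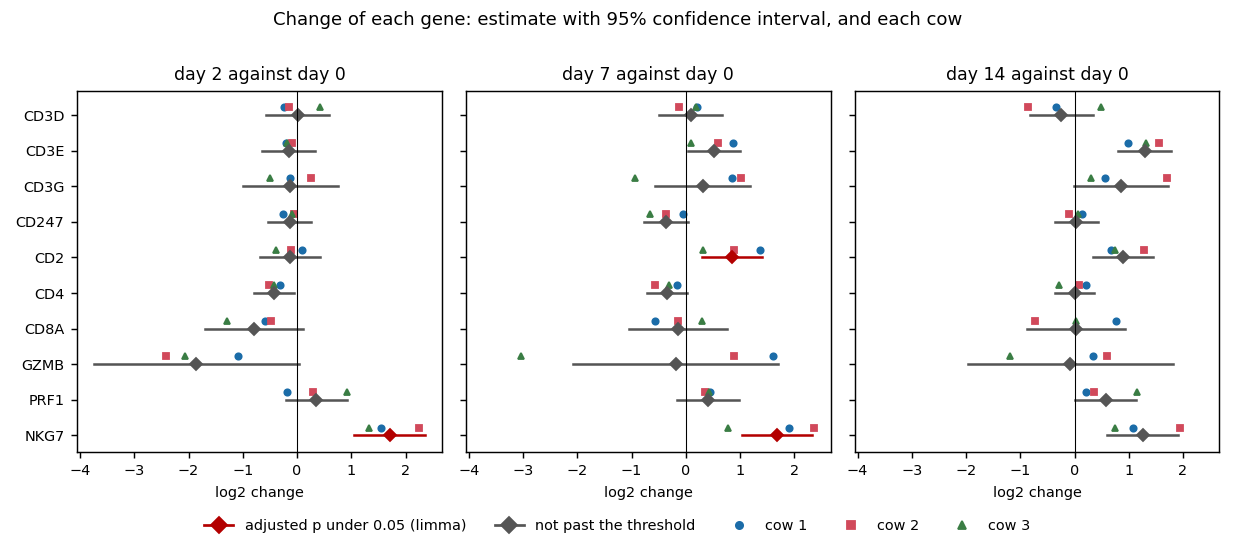
Log2 change of each gene's brightest probe against day 0 (horizontal axis) on days 2, 7 and 14, with diamonds for the limma estimate, bars for its 95% confidence interval and small symbols for each of 3 cows. The red diamonds, at an adjusted p under 0.05, are NKG7 on days 2 and 7 and CD2 on day 7; the GZMB interval is the widest.

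CD2, CD3E and CD3G resembled each other most. After subtracting each cow's mean, CD2 and CD3E correlated at 0.888 over the 12 arrays, CD3E and CD3G at 0.863, and CD2 and CD3G at 0.811; these are descriptions, since the arrays share 3 cows and slides. By the rule for patterns, which takes the signal over the 12 arrays with the cows' means left in, the 10 names closest to the mean of CD3D, CD3E, CD3G and CD247 included LOC530031 (named GIMAP7 in the files, correlation 0.910, and 0.853 after subtracting each cow's mean), A_73_P494663, TMCO5B, GLI3, TC321651, SAXO1, CBFA2T3, SGIP1 and PTPRCAP (0.826, and 0.787 after subtracting), out of 19205 searched. GIMAP proteins are GTPases of lymphocytes, and PTPRCAP binds the CD45 phosphatase.

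A set of CD2, CD3E and CD3G alone, chosen after their values were seen, had closer matches on the same scale. These were ENSBTAT00000053712 (0.983), ENSBTAT00000054754 (0.975), LOC507141 (0.969), LOC100125415 (0.958) and LOC614871 (0.952), both named GIMAP7 in the files, TBC1D10C (0.956), SIT1 (0.955), LOC100336285 (0.935), TRAF3IP3 (0.934) and TTC7A (0.926). SIT1 is an adaptor that restrains T cell receptor signalling. The closest names to the mean of GZMB, PRF1 and NKG7 were SPN (0.940), TTC7A (0.927), SNX20, FMNL1, MYO1G, DV780770, TC337646, ITGAL (0.906), ENSBTAT00000004535 and ADA2. SPN is the leukocyte surface sialoglycoprotein CD43, and ITGAL is the alpha chain of the integrin LFA-1.

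Genes of T cell receptor signalling gave calls in both directions. Of 17 tested, 0 were called higher and 1 lower on day 2, 3 higher and 1 lower on day 7, and 0 on day 14. The medians were -0.37, 0.25 and 0.36. For this and every list below, the shares of all genes called in either direction were 2.74%, 18.5% and 0.0937% on days 2, 7 and 14. ZAP70, the kinase that binds the phosphorylated CD3 and zeta chains, fell by 1.12 on day 2 (adjusted p = 0.0337) and by 0.95 on day 7 (adjusted p = 0.0175), and was -0.12 from day 0 on day 14. On day 7 RASGRP1, an activator of Ras below the receptor, rose by 2.33 (adjusted p = 0.0263), SH2D2A, a T cell adaptor, by 1.68 (adjusted p = 0.00346), and LCP2, the adaptor SLP-76, by 0.99 (adjusted p = 0.0282). All 4 LCP2 probes passed on day 7; the dimmer probes of RASGRP1 (0.84, adjusted p = 0.236) and SH2D2A (not well above background on any array) did not add to these calls.

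Of 23 T cell surface and costimulation genes on the array 17 were bright enough to be tested, and of these 1 was called higher on day 2, 3 on day 7 and 0 on day 14, none lower, with medians of 0.20, 0.89 and 0.85. TNFRSF9, the costimulatory receptor 4-1BB, was not well above background on any day 0 array and was at least 6.08-fold higher on day 7 (adjusted p = 0.0122). CD44, a hyaluronan receptor that many cell types besides T cells carry, rose by 2.63 on day 2 (adjusted p = 0.0116) and by 3.04 on day 7 (adjusted p = 0.00175). PDCD1, the inhibitory receptor PD-1, rose by 1.07 on day 7 (adjusted p = 0.017), and its second probe changed by 0.83 (adjusted p = 0.0735).

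Other cytotoxic and NK genes were level by median, at 0.08, 0.05 and 0.06 on days 2, 7 and 14 over 17 genes. The only call was CD244, a receptor of NK and cytotoxic T cells, higher on day 7 by 1.25 (adjusted p = 0.0248) with its second probe at 1.22 (adjusted p = 0.0263). TYROBP, the adaptor DAP12 that myeloid cells also carry, changed by 2.28 on day 2 and 1.62 on day 7 without passing (adjusted p = 0.0529 and 0.0533). Of 15 transcription factor genes of T cells, 0 were called higher and 2 lower, both on day 7: IKZF2 (Helios) at -2.39 (adjusted p = 0.013) and TOX at -2.32 (adjusted p = 0.0111), whose second probe was at -1.55 (adjusted p = 0.0386). Both are also expressed outside lymphocytes.

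Of 22 genes of lymphocyte recruitment, 2 were called higher on day 2, 5 higher and 2 lower on day 7, and 0 on day 14. CCL19, a chemokine for cells with the receptor CCR7, was not well above background on any day 0 array and was at least 78.6-fold higher on day 7 (adjusted p = 0.00187); its second probe, well above background on 3 of 12 arrays, changed by -0.35 (adjusted p = 0.722). CXCL9, a chemokine for activated T cells through CXCR3, rose by 1.70 on day 2 (adjusted p = 0.043) and by 1.44 on day 7 (adjusted p = 0.0252). CX3CR1, a receptor of cytotoxic lymphocytes and of monocytes, rose by 2.17 on day 7 (adjusted p = 0.0148), and CXCR4 fell by 1.49 (adjusted p = 0.0393).

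**Figure D4:**
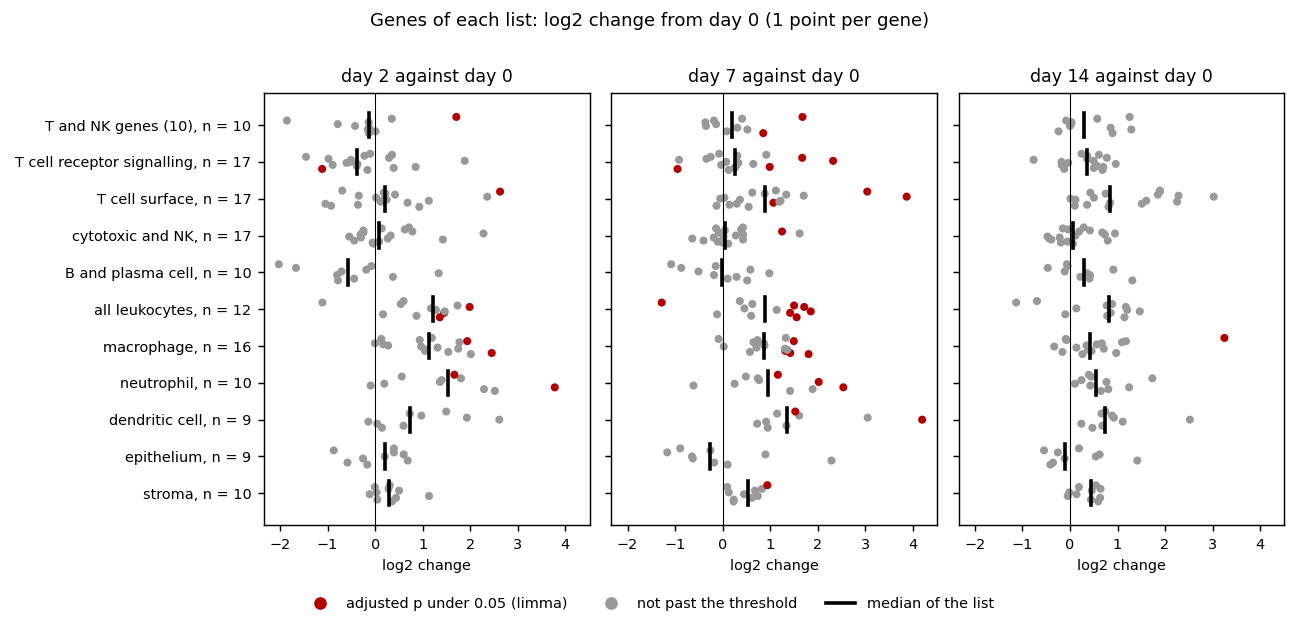
Log2 change against day 0 (horizontal axis) on days 2, 7 and 14 for the tested genes of each list (rows, with the number of genes), 1 point a gene, red at a limma adjusted p under 0.05, with a black bar at the list's median. The medians of the all-leukocyte, macrophage and neutrophil lists are highest on day 2, at 1.23, 1.13 and 1.53, while the 10 T and NK genes are at -0.13, 0.20 and 0.30 on days 2, 7 and 14.

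Lists of other cells were read as the background of these values. Of all genes, 2.74%, 18.5% and 0.0937% were called on days 2, 7 and 14. Of 12 pan-leukocyte genes, 3 were called higher on day 2, 5 higher and 1 lower on day 7, and 0 on day 14. The medians were 1.23, 0.88 and 0.82. ITGB2 (1.99 on day 2), CORO1A (1.86 on day 7), SPI1 (1.51 on day 7) and PTPRC (1.56 on day 7) were among those called higher. The second PTPRC probe changed by 0.99 on day 7 (limma adjusted p = 0.09). The gene called lower was ARHGDIB, at -1.28 on day 7 (limma adjusted p = 0.0415), where all 3 of its probes passed. Of 16 macrophage genes, 2, 4 and 1 were called higher on days 2, 7 and 14, with GPNMB at 3.25 on day 14, CD68 at 2.45 and CYBB at 1.94 on day 2, and CD14 at 1.81 on day 7. Of 10 neutrophil genes, 2, 3 and 0 were called higher, among them S100A12 at 3.78 on day 2 and PADI4 at 2.02 on day 7. Of 9 dendritic cell genes, 2 were called higher, on day 7: CD86 by 1.53, and CD1B, which was not well above background on any day 0 array, at least 12.5-fold. The other CD1B probes changed by 3.32 and 2.00 on day 7 without passing (limma adjusted p = 0.118 and 0.281).

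Of 10 B and plasma cell genes none was called on any day by limma, with medians of -0.57, -0.02 and 0.29; the largest changes were TNFRSF13C at -2.03 and JCHAIN at -1.67 on day 2 (adjusted p = 0.0637 and 0.0655). None of 9 epithelial genes was called, KRT7 having the largest change at 2.29 on day 7 (adjusted p = 0.0527), and of 10 stromal genes only FBN1 was called, at 0.94 on day 7. The summed signal of 12 pan-leukocyte genes, in log2 units over the 3 cows, ranged from 4.43 to 4.82, 4.63 to 5.13, 3.86 to 5.43 and 4.28 to 4.94 on days 0, 2, 7 and 14. Across cows all later days thus overlapped day 0. Within each cow this sum was higher on day 2 than on day 0 (5.13 against 4.82, 4.63 against 4.43 and 4.88 against 4.78 in cows 1, 2 and 3). The summed signal of 16 macrophage genes ranged from 4.24 to 4.48, 4.72 to 5.14, 4.33 to 6.01 and 4.25 to 5.64 on the same days. For 10 neutrophil genes the sum in cow 3 was 1.97 on day 0, 6.50 on day 7 and 6.32 on day 14. In cows 1 and 2 the neutrophil sum was lower on days 7 and 14 than on day 0. The part of macrophages, neutrophils and dendritic cells in the changes of genes they share with lymphocytes was not tested.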

How the data were processed

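RNA of 12 endometrial biopsies (3 cows, 4 days) was hybridised to 1-colour Agilent arrays. Per the file headers, the authors deposited processed intensity values from Agilent Feature Extraction 11.5.1.1, background-subtracted and not normalised between arrays; the submitters' processing notes name version 10.5.1.1. The authors' deposited value table holds log2 values. Set against the scanner values, its columns are log2 intensities scaled to each array's 75th percentile and centred on each probe's median, with column medians from -0.07 to 0.08; the direction was not in doubt, since columns and files correlated at 1.0. It gave the array names and served as an alternative.

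From the files, log2 processed intensity minus the log2 of the array's 75th percentile over non-control probes was computed, spots of 1 probe were averaged, and 31 of 43653 probes with outlier flags were left out. A probe was kept if well above background on at least 3 of 12 arrays, which left 33539. Differences were tested with limma 3.58.1 in R 4.3.3 (day plus cow, moderated over probes, residual df 6), Benjamini-Hochberg over 33539 probes, threshold 0.05. A gene not above background on any array of 1 day is given as "at least N-fold", against the higher of its own signal and the lowest signal well above background on each array of that day. Simulated data for day 7 against day 0 held 33539 probes, of which 100 were changed by log2 1 and 100 by log2 2. Of these, 24% and 62% were recovered, with 5 false calls. In the data 18.2% of probes were called for that comparison, far more than were changed here. The recovered shares therefore do not give the power of the day 7 test.

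Probes were named through their accession and a RefSeq table of ARS-UCD2.0, for names only: 20582 by their own accession, 1607 by another accession of the probe, 9842 by a current symbol and 372 by an older one, while 11219 kept the file's name. The cow pairs the samples, since the same animals gave all days; over 18 same-cow pairs the deviations from the day means correlated at 0.285 on average (0.024 at the lowest), against -0.136 over 36 pairs of different cows. Named were all 10 genes, from each list at most 4 genes past the threshold against day 0 by largest change (the largest changes where fewer than 2 passed), and the 10 genes closest to the CD3 chains and to the cytotoxic genes. ARHGDIB was named besides, as the pan-leukocyte gene called lower. The 10 genes and all lists were chosen with earlier results of these data known. Alternatives were the model without cow, no filter, quantile scaling, normexp with offset 50, only 2 days, array weights, the file links, the value table, the mean over probes, and leaving out each cow or the day 2 array of cow 3; counting any probe of a gene was added after the data were seen. Some genes that this rule names are not reported here.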

Additional observations from a re-analysis of the deposited data

How the results depend on the processing

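Of the 10 genes, 1 was called on day 2, 2 on day 7 and 0 on day 14 against day 0, and 3 by the F-test. With the deposited value table no change of direction or call occurred among the 30 changes against day 0. Without the cow as a replicate block 1 gene (NKG7) was called on day 7 and 1 by the F-test; the block changed no other call. NKG7 was also the 1 gene called on day 7 with no filter on dim probes, with quantile scaling, and with normexp correction and quantile normalisation, which called 1 gene (CD3E) on day 14. With only the 2 days compared in the model, 0 were called on day 2 and 0 on day 7, where 396 and 1905 of all probes were. Array weights, whose estimation stopped before converging, called 2 on day 2 (CD4 and NKG7), 3 on day 7 (CD2, CD4 and NKG7), 2 on day 14 (CD3E and NKG7), 3 for day 7 against day 2, 9 for day 14 against day 2, 3 for day 14 against day 7 and 9 by the F-test. With the arrays named by file links 0 were called on day 2, 0 on day 7 and 0 by the F-test, where 0, 0 and 123 of all probes were. Leaving out 1 cow or the day 2 array of cow 3 gave 0 to 1 called on day 2, 0 to 1 on day 7, 0 to 3 by the F-test and 0 to 1 for day 7 against day 2. Over all probes these fits called 0 to 825, 0 to 6731, 0 to 3284 and 0 to 2166 in the same order.

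Directions turned under some settings. With quantile scaling the change was -0.035 for CD3D on day 2, and -0.0033 for CD2 between days 14 and 7. With normexp and quantile normalisation it was -0.0050 for CD3D on day 2, -0.17 for CD8A on day 14, and -0.055 and -0.018 for PRF1 on days 7 and 14 against day 2. With array weights it was -0.13 for CD3D and 0.10 for CD3G on day 2, -0.014 for CD3D and 0.41 for GZMB on day 7, 0.10 for NKG7 between days 7 and 2, and -0.29 for CD2 and -0.98 for GZMB between days 14 and 7. With the mean over a gene's probes it was 0.26 for GZMB on day 7, 0.69 for CD3D, -0.39 for CD8A and 0.25 for GZMB on day 14, 0.55 for CD3D between days 14 and 2, and -0.0047 for CD8A and -0.0076 for GZMB between days 14 and 7. The cause was not tested.

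With the file links, the changes that turned sign against day 0 were, on day 2, CD3D -0.075, CD8A 0.37, PRF1 -0.77 and NKG7 -0.49; on day 7, CD2 -0.42, CD3D -0.30, CD3E -0.45, CD3G -0.15, GZMB 0.0050, PRF1 -1.24 and NKG7 -0.21; on day 14, CD2 -0.76, CD3D 0.20, CD3E -0.52, CD3G -0.40, PRF1 -0.87 and NKG7 -0.33. Between days 7 and 2 they were CD3D -0.22, CD4 -0.12, CD8A -0.38, PRF1 -0.47 and NKG7 0.28. Between days 14 and 2 they were CD3D 0.27, CD4 -0.31, CD8A -0.30, GZMB -0.52, PRF1 -0.10 and NKG7 0.16. Between days 14 and 7 they were CD2 -0.34, CD3D 0.49, CD3E -0.067, CD3G -0.25, CD4 -0.20 and GZMB -1.85.

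Leaving out 1 cow, or the day 2 array of cow 3, gave these ranges where a sign turned. On day 2 CD3D ranged from -0.20 to 0.14 and CD3G from -0.31 to 0.060. On day 7 CD8A ranged from -0.36 to 0.078, CD3G from -0.040 to 0.93 and GZMB from -1.08 to 1.24. On day 14 CD8A ranged from -0.35 to 0.40, CD247 from -0.020 to 0.099, CD3D from -0.60 to 0.069, CD4 from -0.10 to 0.14 and GZMB from -0.42 to 0.47. Between days 7 and 2 CD3D ranged from -0.10 to 0.24, PRF1 from -0.22 to 0.34 and NKG7 from -0.22 to 0.24. Between days 14 and 7 CD8A ranged from -0.43 to 0.53, CD2 from -0.15 to 0.41, GZMB from -0.78 to 0.78 and PRF1 from -0.12 to 0.36.

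Over all probes 846, 6098 and 44 were called on days 2, 7 and 14 and 2609 by the F-test. These were 427, 4453, 41 and 1569 with no replicate block, 529, 4552, 4 and 1444 with no filter, 746, 6269, 104 and 2606 with quantile scaling, 982, 6643, 817 and 3826 with normexp, 396, 1905 and 0 (no F-test) with only 2 days, 5084, 10429, 351 and 20586 with array weights, and 0, 0, 237 and 123 with the file links. Without cow 1 they were 0, 0, 0 and 0, without cow 2 they were 0, 213, 0 and 0, and without cow 3 they were 825, 6215, 0 and 3284. For day 7 against day 2, 163 were called, against 2166 without cow 3, 10134 with weights, 441 with normexp, 51 with no filter and 0 with 2 days, with the file links and without cow 1 or cow 2. For day 14 against day 7, 49 were called, against 18 without the block, 7 with no filter, 32 with quantile scaling, 467 with normexp, 0 with 2 days, 9388 with weights, 215 with the file links, 142 without cow 3 and 0 without cow 1 or cow 2; for day 14 against day 2, 0 were called, against 13 without the block, 12 with normexp, 15489 with weights, 194 with the file links and 1 without cow 3.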
